A study of Rattus norvegicus with 8 samples.

Results

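The axon guidance ligands and receptors comprised every gene on the array named as a semaphorin, plexin, ephrin, Eph receptor, slit, Robo, netrin or Unc5 receptor, together with Nrp1, Nrp2 and Dcc. The rule found 87 probes for 61 of the 35250 gene names on the array, and 49 of these 61 genes were quantified in all 8 rats. One gene taken in by its name, Unc50, is not a guidance receptor and is given apart.

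Guidance molecules steer growing axons by contact or by gradients. Secreted class 3 semaphorins act through a neuropilin that binds the ligand and a plexin that signals, whereas the membrane-bound classes bind plexins directly. Ephrins sit on the cell surface, ephrin-A by a lipid anchor and ephrin-B by a transmembrane domain, and activate Eph receptor tyrosine kinases on the neighbouring cell. Slits repel axons that carry Robo receptors, and netrins attract through Dcc or repel through Unc5 receptors. In the adult hippocampus the same molecules are known for their part in mossy fiber targeting, dendritic spines and synaptic plasticity.

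RNA came from the dentate gyrus (DG) of adult female Sprague-Dawley rats, all ovariectomized and all taken through kainic acid-induced status epilepticus (SE), with 4 rats in each group. Oil-injected rats form the COS group, and rats given estradiol (E2) replacement form the CES group. According to the sample labels, E2 was given as 4 doses of 2 µg at intervals of 24 h, 2 before and 2 after SE, kainic acid was given at 16 mg/kg, and SE was ended with pentobarbital after 5 h. The study's methods differ from the labels: they give a lower kainic acid dose, diazepam as the agent that ended SE, and all daily injections of estradiol benzoate as completed before SE. They also give more than a single time of tissue collection after SE, and none of these differences was resolved here. Rats without SE were not analysed here, so the comparison is CES against COS alone.

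Each of the 4 arrays held 2 rats of the same group, one labelled Cy3 (replicates 1 and 3) and the other Cy5 (replicates 2 and 4), and the arrays shared a single slide. A spot counted as valid where the foreground reached 2 times the local background, which held for 74.6 to 88.9% of spots in COS rats and for 70.7 to 81.5% in CES rats. No spot was saturated. A level below is the log2 of a gene's background-subtracted signal relative to the median valid spot of the same label on the array, so that levels can be compared between rats but not between genes. Differences are CES minus COS on this log2 scale, with the standard error of the limma fit, and adjusted p-values were taken over all 21372 gene names quantified.

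The labelled tissue was checked against marker genes. Of 11 dentate granule neuron markers on the array, 10 were quantified, and 6 were well above background in all rats. Prox1, a defining granule cell transcription factor, was not well above background in any rat, and neither was Tdo2. Among the quantified granule neuron markers 2 were called higher and 4 lower in CES. Markers of pyramidal neurons from the neighbouring CA fields were called higher in CES for 7 of 11 gene names, none lower. The names include Nectin3 also under its former symbol Pvrl3, and neither was called. Their summed level was 52.6 to 73.8 in COS rats and 157, 81.4, 165 and 142 in CES replicates 1 to 4. Microglia markers were called lower for 7 of 12 and higher for 1, with sums of 240 to 347 in COS and 92.5 to 191 in CES. The microglia sum was weighted toward C1qb (-1.35), C1qa (-0.86) and Tyrobp (-1.85), the genes of strongest signal. P2ry12 (0.93) was the marker called higher, and Aif1 (-0.32), Cx3cr1 (-0.43), Trem2 (-0.27) and Tmem119 (0.22) were not called. Interneuron markers summed to 470 to 684 in COS and 241 to 443 in CES, with 3 of 9 called lower and none higher. This sum was weighted toward the neuropeptide genes of strongest signal, Npy (-1.84) and Sst (-1.56), which with Vip (-1.06) were the genes called. Gad1 (-0.57), Gad2 (-0.58), Slc32a1 (-0.33) and Reln (-0.19) were not called, nor were Pvalb (0.51) and Cck (0.38), which were higher. Choroid plexus markers ranged from 14.1 to 645 among COS rats and from 18.4 to 204 among CES rats, with 645 in COS replicate 2 and none of 8 called. The remaining lists gave, as called higher and lower, 4 and 2 of 11 astrocyte, 1 and 1 of 11 oligodendrocyte, 0 and 1 of 4 oligodendrocyte precursor, 3 and 5 of 10 endothelial and 1 and 2 of 10 meningeal markers. Over all genes 5.79% were called higher and 28.3% lower. Lower calls among interneuron, astrocyte, oligodendrocyte, oligodendrocyte precursor and meningeal markers were near or below that share. After loess and Aquantile normalization (below), lower calls were of 3 microglia, 2 interneuron, 2 endothelial and 1 granule neuron marker, beside 8.87% of all genes. Higher calls then included 6 pyramidal neuron and 2 interneuron markers, beside 14.2%. In tissue RNA, fewer cells of a type and less RNA per cell cannot be told apart.

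Of the 49 quantified guidance genes, 6 were called higher in CES at an adjusted p under 0.05 (12.2%, beside 5.79% of all genes) and 9 were called lower (18.4%, beside 28.3% of all genes). Higher were the Eph receptors Epha4, Epha8 and Ephb6, the membrane-bound semaphorins Sema4g and Sema6b, and the ligand Slit1. Lower were Sema3c, Sema3f, Sema5b, Plxnb2, Plxnd1, Efna4, Unc5b, Unc5d and Unc50. The median difference over all genes was -0.25 and the median over the guidance genes was 0.05, so that relative to all genes the guidance genes had a median of 0.30, with 34 of 49 above 0. Of all 61 genes, 31 were well above background in all rats. The 12 not quantified were well above background in 1 to 4 rats (Dcc, Efna1, Epha2, Ntn5, Robo4 and Sema4b) or in none (Efna5, Efnb2, Epha1, Nrp2, Ntn1 and Sema3a). The 25 quantified ligands had a median relative difference of 0.26 and the 23 receptors, Unc50 left out, of 0.54.

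These counts depended on the scaling. After loess and Aquantile normalization the median of all genes lay at 0.05, and 14 guidance genes were called higher (28.6%, beside 14.2% of all genes) and 2 lower (4.08%, beside 8.87%). Quantile normalization gave 14 and 2, beside 3083 and 2257 of all 21372 genes. Scaling over the commonly valid spots gave 14 and 1, beside 3352 and 1720. The deposited log2 table also gave 14 and 1, beside 3285 and 1936 of 21047 genes. With median scaling 1238 of all genes were called higher and 6054 lower, so calls over all genes moved in the same direction. The 6 genes called higher were called under each of these 4 other scalings, and 8 further genes joined them under all 4: Efna3, Efnb3, Epha5, Ephb1, Nrp1, Ntn3, Sema4a and Sema4f. None of the 9 genes called lower was called under all 4. Plxnb2 was called under loess and quantile normalization, Efna4 under loess, and Unc5d under the other 3, while Plxnd1, Sema3c, Sema3f, Sema5b, Unc50 and Unc5b were called under none. No called gene changed the sign of its difference under any of these scalings, which reuse the rats in which the genes were called. With normexp background correction, 1 gene was called higher, Epha4, and 0 lower, with no count over all genes to set beside it.

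**Figure D1:**
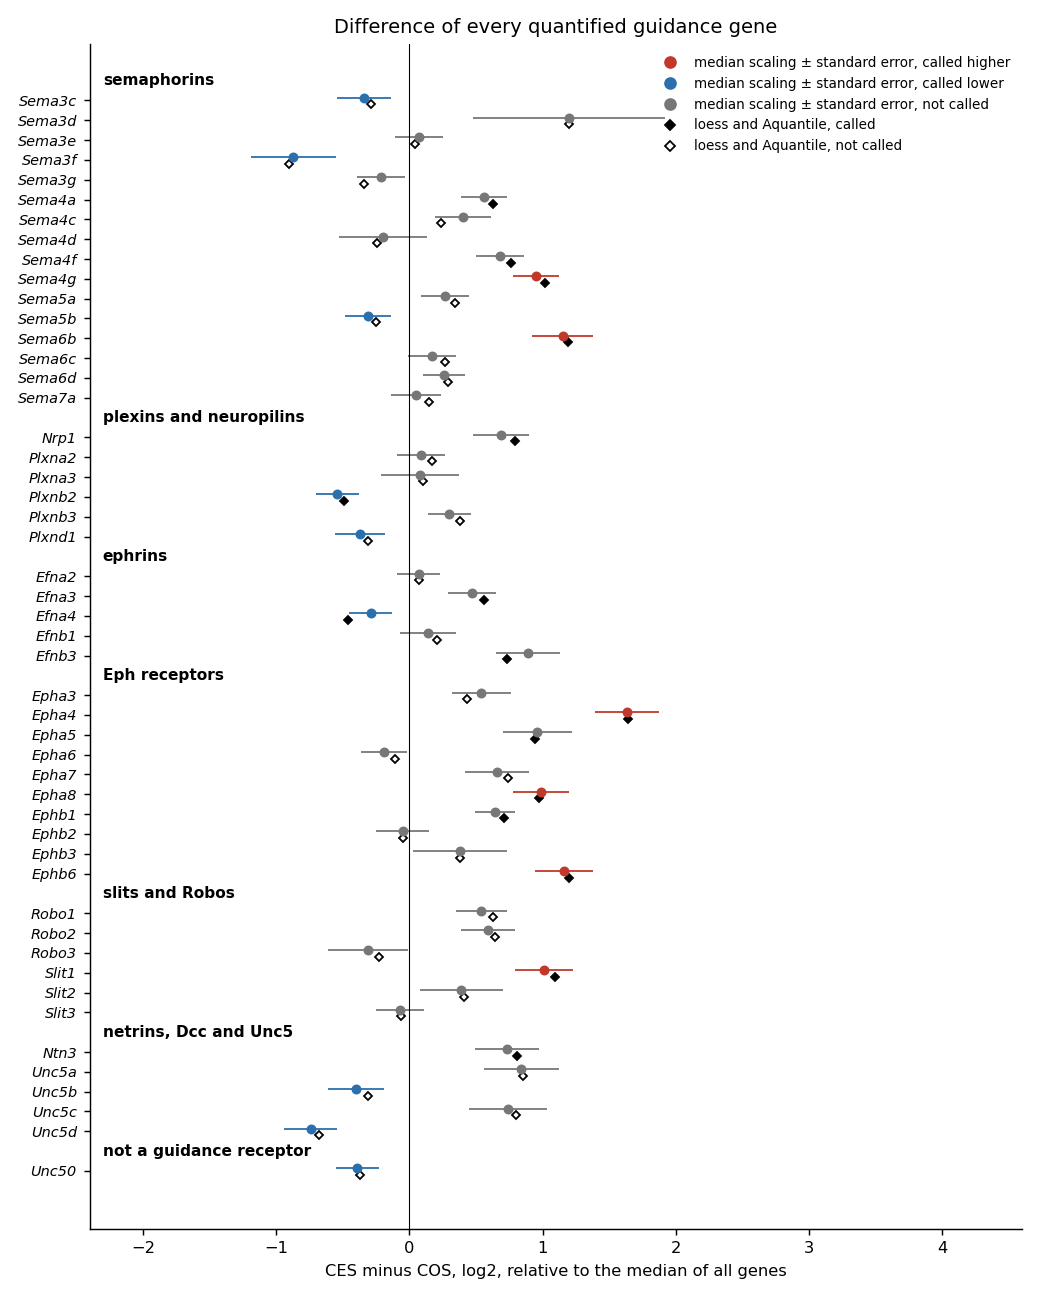
Difference CES minus COS (log2, x axis) of each of the 49 quantified guidance genes relative to the median of all genes, by family. Circles with bars are the median scaling ± standard error (red called higher, blue called lower, gray not called), and diamonds are loess and Aquantile normalization (filled where called). Epha4 lies furthest to the right at 1.63, and 34 of 49 genes lie above 0.

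Single rats also mattered. Without COS replicate 3 the calls fell to 1 higher and 0 lower, and without COS replicate 1 to 1 and 3, the gene called higher being Epha4 in both cases, whereas without CES replicate 2 they were 12 and 9. Leaving out COS replicate 4 gave 3 and 7, CES replicate 1 gave 3 and 2, and COS replicate 2 gave 6 and 4. Calls over all genes are not given for these fits, so the shifts cannot be read as particular to the guidance genes. Over up to 24 alternatives, the genes called higher besides Epha4 kept their call in 16 to 20 (Epha8 in 16 of 22). Of those called lower, Unc5d kept it in 19 of 23, Plxnb2 in 18 of 23 and Unc50 in 16 of 24. The others were called in about as many alternatives as not or in fewer: Plxnd1 in 13, Sema5b in 12, Unc5b in 11 and Sema3c in 9 of 24, and Sema3f in 12 and Efna4 in 11 of 22. The median guidance gene lay 0.81 to 1.06 below the median of all genes in the 4 COS rats, and 0.02, 0.78, 0.17 and 0.08 below it in CES replicates 1 to 4. CES replicate 2 was thus the CES rat nearest to the COS rats. It had the lowest CES level for 5 of the 6 genes called higher, beside 31 of all 49 quantified guidance genes.

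**Figure D2:**
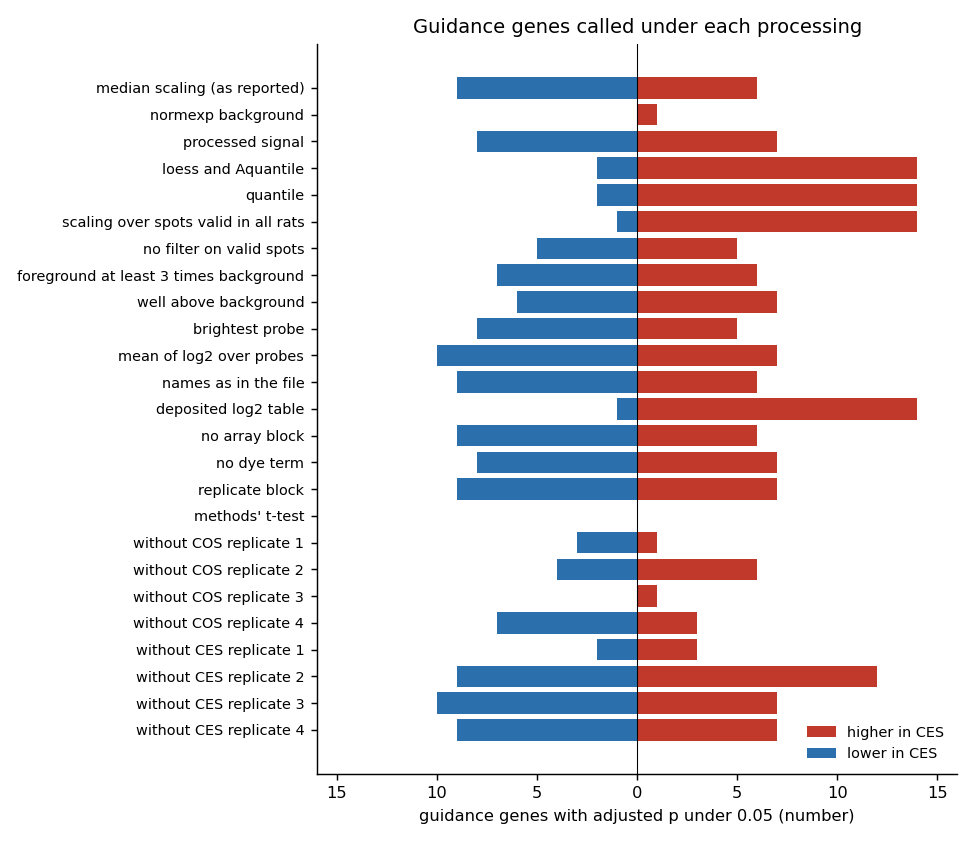
Number of guidance genes (x axis) with an adjusted p under 0.05, higher in CES to the right and lower to the left, under each processing or with 1 rat left out (y axis). Both bars reach 0 with the methods' t-test, and the bars to the right reach 14 under the 4 other scalings.

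Epha4, a receptor tyrosine kinase that binds both ephrin-A and ephrin-B ligands, had the largest difference of the 49. Its levels were 2.24, 2.07, 2.56 and 2.06 in COS replicates 1 to 4, and 4.00, 2.70, 3.92 and 3.79 in CES replicates 1 to 4. The groups did not overlap, with CES replicate 2 nearest to COS. Expression rose by 1.37 ± 0.24 on the log2 scale (2.59-fold, limma adjusted p = 0.00474). Groups apart in this direction were found for 1.61% of all genes. Epha4 was called in 23 of 24 alternatives, all 8 that left out a rat included. The exception was the methods' t-test, in which no gene passed after adjustment (adjusted p = 0.0981 for Epha4, and adjusted p from 6.99e-05 to 0.0981 over the alternatives).

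Epha4 was read by 3 probes, shown here because they lie far apart on the transcript and can be read against each other. The first 2 are printed whole and the last by its first 30 bases, each in the sense of the transcript, with rn4 positions on the minus strand.
Epha4 probe at transcript position 2225, chr9:76692255-76692314: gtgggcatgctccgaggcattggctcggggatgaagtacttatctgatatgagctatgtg
Epha4 probe at transcript position 2535, chr9:76686923-76690136, across an intron: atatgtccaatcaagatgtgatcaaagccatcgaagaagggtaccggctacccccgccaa
Epha4 probe at transcript position 5857, chr9:76677199-76677258: agcctcaatgacttgtctgaagacacttaa

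All 3 probes were called higher in CES when each was fitted on its own, beside 5.48% of all probes. The differences were 1.08 ± 0.22 at position 2225, 1.15 ± 0.25 at 2535 and 1.43 ± 0.24 at 5857 (limma adjusted p = 0.00718, 0.0083 and 0.00428). At position 2225 the groups overlapped, since CES replicate 2 was at 0.63 and COS replicate 3 at 0.84. The probes therefore gave a like difference along the transcript. Within CES, replicate 2 was lowest both for Epha4 and for the summed pyramidal neuron markers, and the part of these markers in the Epha4 difference was not tested. The pyramidal list was not alone in this. CES replicate 2 also had the lowest CES sums of granule neuron (54.3), astrocyte (229), oligodendrocyte (374), oligodendrocyte precursor (14.3) and meningeal (41.5) markers. It had the highest CES sums of interneuron (443) and microglia (191) markers.

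**Figure D3:**
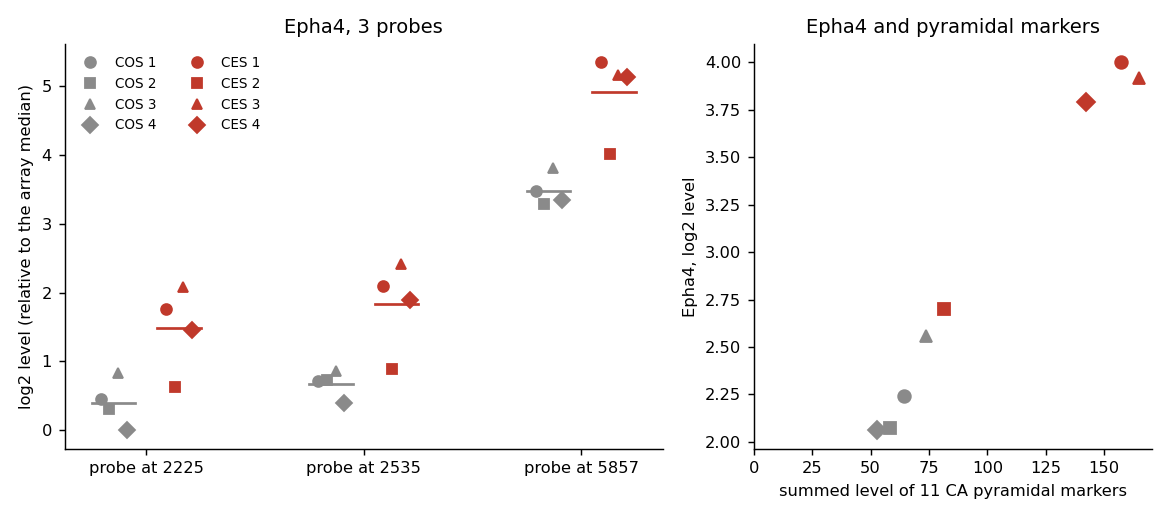
Left, log2 level of the 3 Epha4 probes (x axis, position in the transcript) in each rat, with bars at group means, gray for COS and red for CES. Right, Epha4 level (y axis) against the summed level of 11 CA pyramidal marker names, Nectin3 also as Pvrl3 (x axis, linear): CES replicate 2 (81.4) lies between the COS rats (52.6 to 73.8) and the other CES rats (142 to 165).

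Eph receptors as a family had 3 of 10 quantified genes called higher (beside 5.79% of all genes) and none lower (beside 28.3%). Of the 10, 8 were above the median of all genes, with a median relative difference of 0.65. With loess and Aquantile normalization, 5 passed as higher (beside 14.2% of all genes) and none as lower (beside 8.87%). Higher and lower calls were then 4 and 0 of 16 semaphorins, 2 and 1 of 5 ephrins, and 1 and 1 of 6 plexins and neuropilins. Slits and Robos had 1 and 0 of 6, and netrins with their receptors 1 and 0 of 5. Ephb6, whose kinase domain is inactive, had levels of 2.55, 2.37, 3.23 and 2.41 in COS and 3.35, 3.54, 4.10 and 3.18 in CES. Only CES replicate 4 lay below the highest COS rat, and the difference was 0.90 ± 0.22 (adjusted p = 0.0142). The spot of this probe was marked as an outlier by the scanner software in COS replicates 1 and 2 and was kept.

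Epha8, an ephrin-A receptor with a dim probe, was well above background in 2 of 4 COS and in all 4 CES rats. Levels were -1.28, -1.95, -1.35 and -2.35 in COS and -0.72, -1.86, -0.30 and -1.12 in CES. The groups overlapped through CES replicate 2, but within each dye both CES rats lay above both COS rats. Such separation within each dye in this direction was found for 7.43% of all genes. The difference was 0.73 ± 0.21 (adjusted p = 0.0239).

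Ephb1, an ephrin-B receptor, is the other Eph receptor besides Epha4 whose groups did not overlap. COS rats were at 0.91, 0.82, 1.02 and 0.69, and CES rats at 1.20, 1.15, 1.48 and 1.13. Its difference of 0.38 ± 0.15 missed the threshold (adjusted p = 0.075), and it was called in the 4 other scalings (loess relative difference 0.71, adjusted p = 0.0164). Its 2 probes gave 0.21 ± 0.15 at position 3417 and 0.71 ± 0.17 at position 4510 (adjusted p = 0.303 and 0.0123). Epha5 was 0.70 ± 0.26 higher (adjusted p = 0.0599), with its 2 probes at 0.60 and 0.79, and was also called in the 4 other scalings.

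Among the Eph receptors not called, the differences were 0.40 for Epha7, 0.13 for Ephb3, -0.30 for Ephb2 and -0.44 for Epha6. Epha3 was well above background in none of the COS rats and in 2 of 4 CES rats. It was not called (adjusted p = 0.356), and no fold is given for it. Epha1 was valid in no rat, and Epha2 was valid in 4 COS and 3 CES rats, so neither was quantified.

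For Epha7 and Epha6 the probes disagreed, and the probes behind this are printed for that reason. Those at 1728, 2798 and 2969 are given whole, and the one at 78 by its first 30 bases. All lie on the plus strand of rn4.
Epha7 probe at transcript position 1728, chr5:44854010-44858047, across an intron: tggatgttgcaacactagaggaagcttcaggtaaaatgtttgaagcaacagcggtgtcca
Epha7 probe at transcript position 2798, chr5:44875578-44875637: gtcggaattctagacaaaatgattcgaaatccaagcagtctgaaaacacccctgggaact
Epha6 probe at transcript position 78, chr11:40551917-40611675, across an intron: tgcagtcacgtctccaaccaagttgtgttg
Epha6 probe at transcript position 2969, chr11:41456855-41458460, across an intron: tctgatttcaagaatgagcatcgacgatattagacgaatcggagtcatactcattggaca

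The Epha7 probe at 1728 read 1.27, 0.89, 1.52 and 1.15 in COS and 2.25, 0.70, 2.48 and 2.34 in CES, so that 3 CES rats were high and CES replicate 2 lay below every COS rat. At 2798 the same rats read 0.76, 0.52, 0.72 and 0.37 in COS and 0.25, 0.15, 0.29 and -0.24 in CES, with every CES rat below every COS rat. The differences were 0.73 ± 0.31 (adjusted p = 0.094) and -0.48 ± 0.16 (adjusted p = 0.0406), opposite in sign, and their mean over the gene was not called (adjusted p = 0.211). For Epha6 the probe at 78 fell by 0.96 ± 0.17 (adjusted p = 0.00448), with COS rats at 1.24 to 1.64 and CES rats at 0.11 to 0.56. The probe at 2969 gave -0.27 ± 0.18 (adjusted p = 0.265). Single probes were called lower in 29% of cases over the array.

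Among the ephrins, 5 of 8 were quantified, none was called higher (beside 5.79% of all genes) and 1 was called lower (beside 28.3%). Efna4, an ephrin-A ligand, was well above background in only 1 rat of each group. COS levels were -1.75, -2.61, -1.67 and -2.97 and CES levels were -2.25, -3.41, -2.12 and -3.39. Replicates 2 and 4, which carried Cy5, were lower than replicates 1 and 3 in both groups. Within each dye the CES rats lay below the COS rats, as they did for 33.6% of all genes, and the difference was -0.54 ± 0.16 (adjusted p = 0.0255).

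Efnb3, an ephrin-B ligand, had the largest relative difference among the ephrins at 0.89. It was well above background in none of the COS rats and in 1 CES rat, with levels of -2.45, -3.54, -1.80 and -4.11 in COS and -1.62, -3.59, -1.44 and -2.70 in CES. The groups overlapped and the gene was not called (adjusted p = 0.0692), and since both groups lay near background no fold is given. Efna3 differed by 0.22, Efnb1 by -0.11 and Efna2 by -0.19, none of them called. In the 4 other scalings Efna3 and Efnb3 were called higher. Efna1, Efna5 and Efnb2 were not quantified, being valid in 7, 3 and 3 of the 8 rats.

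Of the 18 semaphorins, 16 were quantified, with 2 called higher (beside 5.79% of all genes) and 3 lower (beside 28.3%). The 11 membrane-bound members had a median relative difference of 0.27, and the 5 secreted class 3 members of -0.21. Sema6b, a transmembrane semaphorin that binds class A plexins, had levels of 2.90, 2.68, 3.46 and 2.68 in COS and 3.92, 3.09, 4.31 and 3.99 in CES. Only CES replicate 2 lay below the highest COS rat, and the difference was 0.90 ± 0.23 (adjusted p = 0.0159). Sema4g, another transmembrane semaphorin, was at -0.01, -0.47, -0.06 and -0.76 in COS and at 0.65, -0.24, 0.80 and 0.29 in CES. Again CES replicate 2 alone overlapped the COS range, and the difference was 0.70 ± 0.17 (adjusted p = 0.0144), carried by the brighter probe at position 4169 (0.77 ± 0.18), while the dim probe at 1844 gave 0.31 ± 0.22.

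The class 3 semaphorin Sema3f, a ligand of neuropilin-2 that repels hippocampal axons, was well above background in 3 of 4 COS and 2 of 4 CES rats. Its levels were -0.66, -0.24, -0.94 and -1.60 in COS and -2.13, -1.97, -1.29 and -2.54 in CES. Only CES replicate 3 overlapped the COS range, where COS replicate 4 was the lowest. Expression fell by 1.12 ± 0.32 on the log2 scale (2.17-fold, adjusted p = 0.0233), but the size of the fall was poorly fixed for this dim probe. It ran from -0.46 with normexp background correction (adjusted p = 0.645) to -1.90 with the processed signal (adjusted p = 0.0101), and after loess and Aquantile normalization the gene missed the threshold (adjusted p = 0.0651). Its receptor gene Nrp2 was valid in 2 COS rats and no CES rat and was not quantified.

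Sema3c, also secreted, was at -0.13, -0.43, -0.02 and -0.45 in COS and at -0.88, -0.77, -0.33 and -1.45 in CES. Both groups overlapped through CES replicate 3, and the difference was -0.60 ± 0.20 (adjusted p = 0.0436). Its brighter probe at position 2741 was not called on its own (-0.55 ± 0.23, limma adjusted p = 0.088). The probe at 1808 was called (-0.80 ± 0.26, limma adjusted p = 0.0358) but was well above background in only 3 COS rats and 1 CES rat. Sema5b, a transmembrane semaphorin with thrombospondin repeats, was at -0.06, -0.37, -0.15 and -0.70 in COS and at -0.76, -1.13, -0.32 and -1.31 in CES. CES replicate 3 was again the high CES rat, and the difference was -0.56 ± 0.17 (adjusted p = 0.0333).

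Sema3d had the largest relative difference among the semaphorins, 1.20, yet it was not called (adjusted p = 0.337). Levels were -0.87, -1.57, -1.42 and -1.83 in COS and 1.73, 0.40, -1.46 and -2.57 in CES. The high CES rats, replicates 1 and 2, shared an array, and the 2 other CES rats lay among or below the COS rats. This came from the probe at position 4748, while the probe at 1781 was well above background in no rat. Differences of the semaphorins not called otherwise ran from -0.47 for Sema3g and -0.46 for Sema4d to 0.30 for Sema4a and 0.42 for Sema4f, with Sema3e, Sema5a, Sema6c, Sema6d and Sema7a between -0.20 and 0.02. In the 4 other scalings Sema4a and Sema4f were called higher. Sema4c, also not called, was well above background in 2 CES rats and in none of the COS rats. Sema3a, valid in 2 of the 8 rats, and Sema4b, valid in 7, were not quantified.

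Plexins and neuropilins gave 2 genes called lower and none higher among 6 quantified, a share of lower calls near the 28.3% of all genes. Plxnb2, a receptor for class 4 semaphorins, was at -0.16, -0.37, -0.25 and -0.61 in COS and at -1.16, -1.28, -0.78 and -1.34 in CES. Every CES rat lay below every COS rat, as was the case for 19.8% of all genes. Its difference was -0.79 ± 0.16 (1.73-fold, adjusted p = 0.00685), and relative to all genes it was -0.54. It was well above background in 3 of 4 rats of each group. The summed microglia markers were also lower, at 240 to 347 in COS rats and 92.5, 191, 153 and 112 in CES replicates 1 to 4. Of the 12 markers, 7 were called lower and 1, P2ry12, higher. The part of these markers in the lower guidance genes was not tested.

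Plxnd1, the plexin that binds Sema3e without a neuropilin, was at 2.04, 1.71, 1.81 and 1.23 in COS and at 1.04, 1.24, 1.10 and 0.91 in CES. COS replicate 4 alone came down to the CES range, and the difference was -0.62 ± 0.19 (adjusted p = 0.0291). The call rested on the brighter probe at position 5741 (-0.66 ± 0.20, limma adjusted p = 0.0292). The probe at 5136, well above background in 1 rat of each group, was not called (-0.27 ± 0.26, limma adjusted p = 0.444). Nrp1, the co-receptor for Sema3a, was 0.44 ± 0.21 higher without passing the test (adjusted p = 0.133) and was called after loess and Aquantile normalization (relative difference 0.79, adjusted p = 0.0365). Plxna2, Plxna3 and Plxnb3 differed by -0.16, -0.18 and 0.05 and were not called.

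In the slit and Robo family 6 of 7 genes were quantified and 1 was called, as higher, beside 5.79% of all genes. Slit1, a secreted repellent made by neurons, was at -0.12, -0.22, 0.26 and -0.90 in COS and at 0.75, -0.17, 1.04 and 0.44 in CES. CES replicate 2 lay within the COS range, and the difference was 0.76 ± 0.22 (adjusted p = 0.0247). Its probe at 4084 gave 1.04 ± 0.22 (adjusted p = 0.0083) and its probe at 4960, on another transcript record, gave 0.51 ± 0.22 (adjusted p = 0.0958).

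Slit2, a second repellent of the family, was not called over the gene (0.14 ± 0.31, adjusted p = 0.756), but its 2 probes parted. They are printed because the gene's level depends on which is read. The probe at 5006 is given whole and that at 6520 by its first 30 bases, both on the minus strand of rn4.
Slit2 probe at transcript position 5006, chr14:67548352-67548411: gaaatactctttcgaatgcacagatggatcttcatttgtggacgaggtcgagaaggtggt
Slit2 probe at transcript position 6520, chr14:67546838-67546897: tagatgtacgtgtataattcggtctgcttt

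The probe at 6520 read 0.73, 0.47, 1.11 and 0.30 in COS and 2.21, 1.07, 2.17 and 2.12 in CES, and only CES replicate 2 fell within the COS range. It rose by 1.24 ± 0.23 (adjusted p = 0.00527). At 5006 the levels were 4.16, 3.93, 4.54 and 3.81 in COS and 5.18, 4.26, 3.19 and 3.48 in CES, with CES replicate 1 above, 2 within and 3 and 4 below the COS range, and the difference was -0.08 ± 0.37 (adjusted p = 0.885). CES replicates 1 and 2, which shared an array, lay above the 2 other CES rats here, as they did for Sema3d. Slit3 differed by -0.32, Robo1 by 0.28, Robo2 by 0.33 and Robo3 by -0.57, none of them called, and Robo4, valid in 7 rats, was not quantified.

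Netrins and their receptors were thinly measured. Ntn3 was the one netrin quantified (0.48 ± 0.24, adjusted p = 0.147), and it was called higher in the 4 other scalings. Ntn1 was valid in 1 rat, Ntn5 in 6 rats and the receptor Dcc in 5 rats. Of the 4 Unc5 receptors, which mediate repulsion, Unc5b and Unc5d were called lower, beside 28.3% of all genes. Unc5a and Unc5c were not called. Unc5d, also a receptor for Flrt proteins, was at 0.55, -0.36, 0.66 and -0.50 in COS and at -0.44, -0.87, -0.59 and -1.72 in CES. Cy3 rats were higher than Cy5 rats in COS, and within each dye both CES rats lay below both COS rats. Its difference was -0.99 ± 0.20 (1.99-fold, adjusted p = 0.00728), and -0.74 relative to all genes.

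Unc5b was at 0.68, 0.58, 0.12 and -0.05 in COS and at -0.13, -0.49, -0.01 and -0.64 in CES. COS replicate 4 overlapped the CES rats, and the difference was -0.65 ± 0.21 (adjusted p = 0.0352). Unc5a had the largest relative difference of its family, 0.84, with levels of -0.58, -1.58, -0.89 and -2.27 in COS and -0.45, -1.92, 0.13 and -0.76 in CES. CES replicate 2 lay at the level of the dimmer COS rats and the gene was not called (0.58 ± 0.28, adjusted p = 0.131). Unc5c differed by 0.48 ± 0.29 (adjusted p = 0.23), with CES replicate 2 at 0.67, below the COS range of 0.98 to 1.96, and the other CES rats at 2.08 to 2.73.

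Unc50, taken in by its name only, is the homolog of a worm protein needed for acetylcholine receptor transport. It was at 3.81, 3.78, 4.04 and 3.57 in COS and at 3.08, 3.22, 3.35 and 2.97 in CES, without overlap. Its difference was -0.65 ± 0.16 (adjusted p = 0.015), and relative to all genes it was -0.39. Without Unc50 the guidance genes numbered 48, with 6 called higher and 8 lower.

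**Figure D4:**
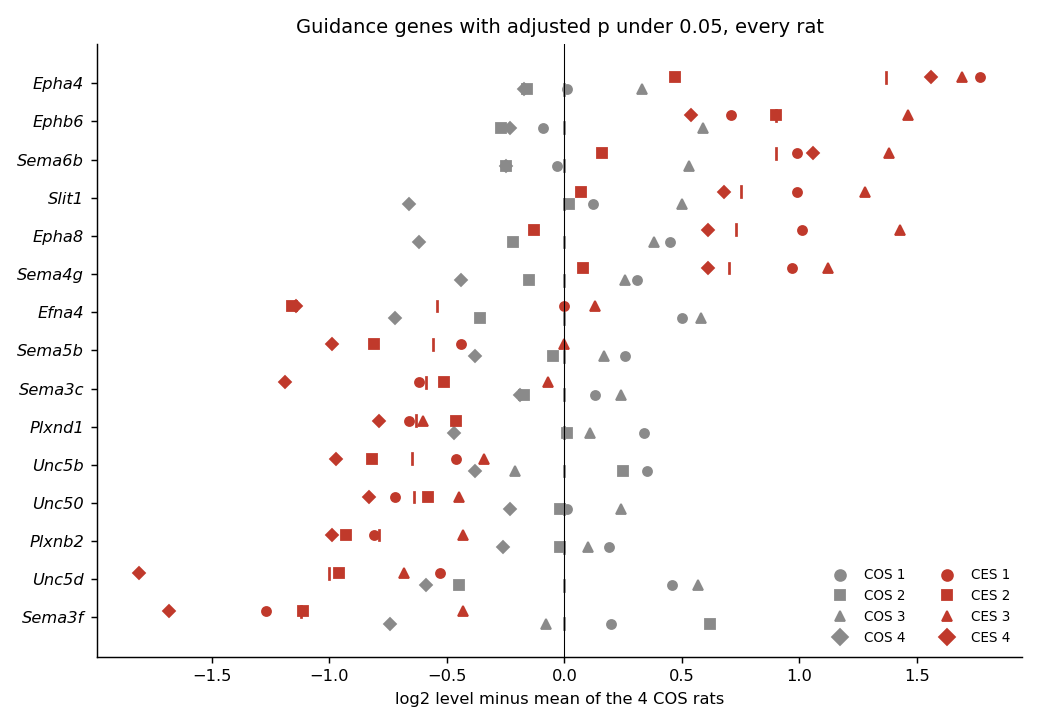
Log2 level of each of the 15 called genes in every rat (x axis, relative to the mean of the 4 COS rats), gray for COS and red for CES, with short bars at the group means and symbols for replicates 1 to 4. Epha4, Plxnb2 and Unc50 have no overlap between groups, and CES replicate 2 is the CES rat nearest to COS for 5 of the 6 genes on top.

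The probes of a gene differed in sign for 6 of the 14 guidance genes with 2 or more quantified probes: Epha7, Plxna2, Robo2, Sema3d, Sema5a and Slit2. Sema5a was read by 6 probes, with differences of -0.45, -0.67, -0.27, -0.19, 0.08 and 0.35 at positions 358, 3114, 4101, 4607, 5416 and 9313, none of them called. Apart from the first pair, the difference grew more positive toward the 3' end. Over the 13 guidance transcripts with several quantified probes, the probe nearest the 3' end was more positive than the one nearest the 5' end in 11, with a median of 0.42. Among all 2896 such transcripts this was so for 56.1%, with a median of 0.06 and with 5th and 95th percentiles of -0.70 and 0.79.

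**Figure D5:**
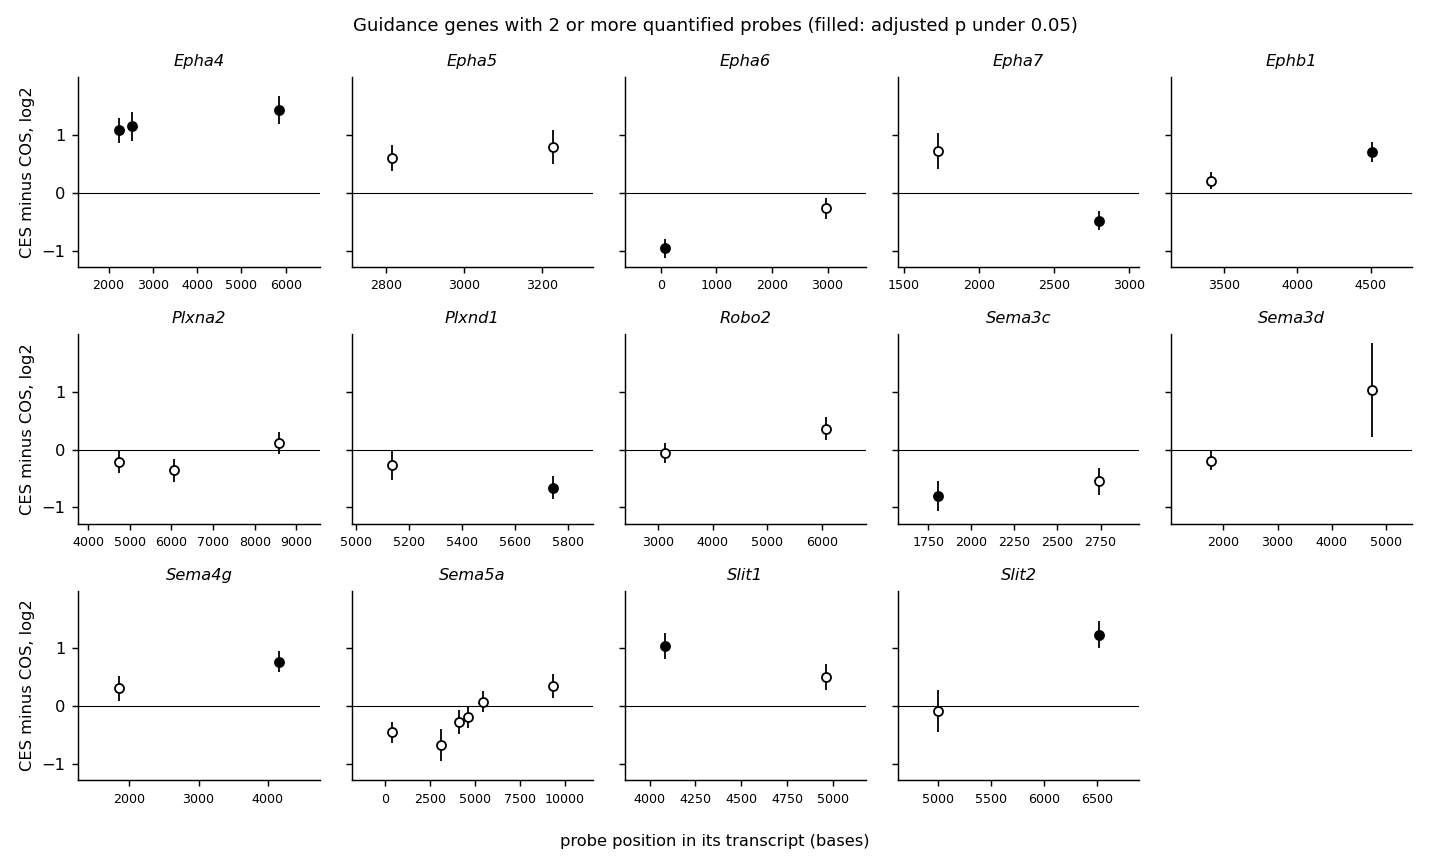
Difference CES minus COS (log2, y axis, ± standard error) of each quantified probe against its position in the transcript (x axis, bases), for the 14 guidance genes with 2 or more quantified probes. Filled points have an adjusted p under 0.05. The 3 Epha4 probes are all filled, and those of Epha7 and Slit2 part by 1.21 and 1.32.

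Further receptors, co-receptors and ligands of the same systems were counted from a list of 32 genes, of which 24 were quantified, 5 were called higher (beside 5.79% of all genes), 6 lower (beside 28.3%) and 13 were not called. Their median relative difference was 0.32. The largest rises were those of Ntng1 (netrin-G1, a lipid-anchored netrin relative), by 1.55 ± 0.25, Ptprd, a receptor tyrosine phosphatase, by 0.98 ± 0.23, and Lrrc4, a netrin-G ligand, by 0.83 ± 0.16 (adjusted p = 0.00417, 0.0119 and 0.00671). Lrrc4c, the netrin-G1 ligand, rose by 0.81 ± 0.19 (adjusted p = 0.0124), and L1cam, an adhesion molecule that partners with neuropilin-1, by 0.72 ± 0.20 (adjusted p = 0.0224). The largest falls were those of Sdc1, a heparan sulfate proteoglycan, at -4.57 ± 0.94, Itgb1, an integrin subunit, at -1.66 ± 0.22, and Lrig1 at -0.79 ± 0.21 (adjusted p = 0.00728, 0.00369 and 0.0184). The size of the Sdc1 fall was poorly fixed, with an SD of 2.34 in CES beside 0.57 in COS. Sdc1 was well above background in 3 of 4 CES rats, and Ntng1 in 2 of 4 COS rats. All 5 genes that rose, and Sdc1 and Itgb1, were also called after loess and Aquantile normalization.

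Of 65 intracellular effectors of guidance receptors, 57 were quantified, 1 was called higher (beside 5.79% of all genes), 17 lower (beside 28.3%) and 39 were not called, with a median relative difference of -0.07. The share called lower was near that of all genes. Chn1, a chimaerin that links Epha4 to Rac in axon guidance, was the gene called higher, by 0.99 ± 0.21 (adjusted p = 0.00832), with levels of 5.33 ± 0.18 in COS and 6.32 ± 0.38 in CES (SD, n = 4) and no overlap. The largest falls were those of the tyrosine kinase Fes at -2.04 ± 0.37, the kinase Pak2 at -0.90 ± 0.21 and the small GTPase Rras at -0.85 ± 0.21 (adjusted p = 0.00543, 0.0106 and 0.0157). Fes and Pak2 were each well above background in all COS rats but in only 2 of 4 CES rats. With loess and Aquantile normalization, 8 of the 57 passed as higher (beside 14.2% of all genes) and 1 as lower (beside 8.87%). The latter was Fes (adjusted p = 0.0373).

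Reference promoters (RefSeq, GRCr8, from 250 bases before to 50 after the start) were given for 39 of the 49 quantified genes and were searched on both strands. The full estrogen response element, an inverted repeat of GGTCA around any 3 bases, was found in none of the 39 and in 0.0255% of all 27457 promoters. Its half-site GGTCA was found in 12 of the 39, beside 40.2% of all promoters, in none of the 3 called higher with a promoter and in 2 of the 7 called lower, Efna4 and Unc50. Neither the AP-1 letters TGANTCA (7.33% of all promoters) nor the cAMP response element TGACGTCA (1.91%) was found in any of the 39.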

How the data were processed

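Total RNA from the DG of 8 rats was hybridised to 4 two-colour Agilent arrays, each channel holding 1 rat, the replicates being biological per the labels. The deposited scanner files, made by the authors with Agilent Feature Extraction 10.7.3.1 per the labels, hold the intensity of each spot and its local background. The authors also deposited a log2 table, which equals log2 of median signal minus background, centred on a median of 0 per channel.

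Following the study's methods, signals of spots valid in all rats (foreground at least 2 times background) were background-subtracted, divided by the median valid spot of the label and array, and averaged per gene. The authors' iterative renormalization across labels and conditions was not applied. Of 41012 probes 17512 were named by RefSeq accession (74 of the 87 guidance probes), the rest by the file. limma 3.58.1 (R 4.3.3) was fitted with dye as a term and array as a random block (correlation -0.0065), two-sided, with Benjamini-Hochberg adjustment. Group differences rest on 4 rats each, and every array holds 1 group only, so that array and group cannot be told apart beyond this block. Guidance genes and gene lists were chosen with earlier results of these data known. Levels in every rat are given for called genes without overlap and, in families lacking these, for the largest relative difference. The other called genes, Ephb1, Unc5c and the disagreeing probes were added after their values were seen. On simulated data with 21372 genes, 15% of changes of 1 and 67% of changes of 2 (log2) were recovered, with 8 false among 90 calls. The simulation planted only 100 changes of each size, whereas 1238 genes were called higher and 6054 lower in the data. The adjusted threshold was thus stricter in the simulation. Its noise was also taken from the spread within groups, dye difference included, whereas the fit to the data removes dye. For both reasons its rates do not carry over to the calls reported here. Alternatives covered background correction, scaling, filters, probe summaries, covariates, the methods' t-test and leaving out each rat.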

Additional observations from a re-analysis of the deposited data

Results flagged for a closer look

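In 5 of 98 sets of 4 rats (49 genes in each of the 2 groups), 1 rat stood apart from the 3 others by more than the 95% limit for a single outlying value. Chance gives about 5% of such sets, so the number alone is unremarkable. Of these, 3 concern CES replicate 2 as the lowest CES rat: Epha4 at 2.70 (others 3.79 to 4.00), Epha7 at 0.45 (others 1.57 to 1.76) and Robo2 at 1.32 (others 2.15 to 2.30). The summed pyramidal neuron markers were also lowest of the CES group in this rat, 81.4 beside 142 to 165, and their part in these levels was not tested. So were the summed granule neuron, astrocyte, oligodendrocyte, oligodendrocyte precursor and meningeal markers, while the interneuron and microglia sums were the highest of the group. CES replicate 2 was the lowest CES rat for 31 of the 49 guidance genes. It was labelled Cy5, and it lay below replicate 4, the other Cy5 rat of the group, also for 31. The same counts over all genes are not given. The other 2 concern COS replicate 3 as the highest COS rat: Epha5 at 4.20 (others 3.48 to 3.60) and Epha6 at 2.52 (others 1.91 to 2.01).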

How the results depend on the processing

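Guidance genes called higher and lower numbered 6 and 9 as reported. They numbered 1 and 0 with normexp background correction, 14 and 2 with loess and Aquantile normalization, 14 and 2 with quantile normalization, 14 and 1 with scaling over common valid spots, 14 and 1 in the deposited log2 table, and 5 and 5 with no filter on valid spots (61 genes). In all genes the calls were 1238 higher and 6054 lower as reported, and 3045 and 1896 after loess and Aquantile normalization. They were 3083 and 2257 after quantile normalization, 3352 and 1720 with scaling over common valid spots, and 3285 and 1936 in the deposited table. The methods' t-test called 0 and 0 after Benjamini-Hochberg adjustment. At an unadjusted p under 0.05 it called 9 guidance genes (4 higher, 5 lower), beside 6114 of all genes. Leaving out 1 rat gave 1 to 12 higher and 0 to 10 lower. Calls over all genes are not given for these fits, nor for normexp correction or the fit without a filter. With a replicate block the counts were 7 and 9. Replicates with the same number share a dye, and after removing dye their deviations correlated at -0.28 to 0.08, so they were not treated as paired. The median relative difference, 0.30, ran from 0.11 to 0.43 over the alternatives and never fell below 0. None of the 15 called genes changed sign under any alternative in which it was quantified (22 of 24 for Efna4, Epha8 and Sema3f, 23 for Plxnb2 and Unc5d, all 24 for the rest). Of the 34 genes not called, 16 did under at least 1. The called genes were picked for large differences in these same rats, so this contrast follows from the selection and adds no support. In a fit of single probes, added after seeing the data, Sema3d turned to -0.19 at position 1781, a probe near background. Genes whose groups did not overlap numbered 2 higher and 2 lower (1.61% and 19.8% of all genes), and 10 and 9 within each dye (7.43% and 33.6%). The cause of these shifts was not tested. Dim probes limit Efna4, Efnb3, Epha3, Epha8, Plxnb2, Sema3d, Sema3f, Sema4c and Unc5d, and 12 guidance genes were not quantified.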
